A study of Homo sapiens with 3 samples.

Results

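The 10 genes followed here belong to the NF-kB system: the subunits NFKB1, NFKB2, REL, RELA and RELB, the inhibitors and feedback regulators NFKBIA, TNFAIP3 and BIRC3, and the target genes TNFAIP2 and ICAM1. They were chosen by name, as subunits, inhibitors and direct feedback targets, and all 10 had a row among the 16662 genes of the deposited table. All 10 were also among the 13879 genes with a mean of at least 1 normalised CPM (read counts scaled to a common library size), so the filter on low values removed none of them.

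The cells were H1975, an established human lung adenocarcinoma line that carries a mutated EGFR. One library each was made from cells given the control siRNA siNC, siHHLA3-1 or siHHLA3-3. The last 2 are differently numbered small interfering RNAs against HHLA3, a gene named after an endogenous retrovirus whose repeat lies at the locus. Transfection was done at about 70% confluency in every group. It was followed by 6 h without serum and 24 h with 10% serum. Each library carried its own batch label, which means that siRNA and batch cannot be told apart, and there were no replicates. Every interval below covers counting error alone, in 1 library for a level and in both libraries compared for a ratio. Every difference describes these 3 libraries.

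NF-kB proteins are dimers of the 5 subunits. RELA, REL and RELB hold a transactivation domain, while NFKB1 and NFKB2 encode the precursors p105 and p100, which are cut to p50 and p52. In resting cells IkB proteins, with NFKBIA (IkB-alpha) the best studied, hold the dimers in the cytoplasm. The canonical arm frees RELA with p50 when IKK kinases mark IkB for destruction, and the non-canonical arm frees RELB with p52 when the kinase NIK (MAP3K14) triggers the cutting of p100. NF-kB then switches on genes that restrain it, NFKBIA and the ubiquitin-editing enzyme TNFAIP3 (A20) among them, and genes that act on other cells, such as the adhesion molecule ICAM1.

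The starts of these genes are shown first because several carry the sequence NF-kB binds, the kB site. RefSeq promoter windows (GRCh38.p14, from 250 bases before to 50 after an annotated start) were matched by symbol for 9 of the 10 members in 13 windows. The strict kB form, which has 3 G, then 2 bases of any kind, then TTT and CC, was searched on both strands. It was found at starts of 6 of these 9 genes, in 7 of the 13 windows, and in 1.91% of all 35116 windows. A match is a description of the letters and does not show binding. The stretches around it are given 5′ to 3′ on the strand of the gene, with the strict kB form in capitals, where a form on the opposite strand reads as its reverse complement. They are limited to 30 bases where an annotated exon of another transcript overlaps them. Matches of the strict form are shown for every gene that had one.
NFKBIA (chr14:35404791-35404860, minus strand): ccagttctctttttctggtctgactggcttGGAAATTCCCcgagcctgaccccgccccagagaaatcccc
TNFAIP3 (chr6:137867188-137867217, plus strand): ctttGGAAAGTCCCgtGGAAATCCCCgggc
BIRC3 (chr11:102317255-102317324, plus strand): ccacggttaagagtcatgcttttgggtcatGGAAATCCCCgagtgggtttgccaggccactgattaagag
NFKB1 (chr4:102501300-102501329, plus strand): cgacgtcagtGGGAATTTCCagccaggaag
REL (chr2:60881518-60881547, plus strand): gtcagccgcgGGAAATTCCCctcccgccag
NFKB2, the second annotated start (chr10:102394490-102394519, plus strand): gggccgagaaGGGGCTTTCCcggccctgag
NFKB2, the third annotated start (chr10:102395674-102395703, plus strand): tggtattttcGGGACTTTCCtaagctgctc

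The TNFAIP3 start held a pair of such forms, beginning 67 and 55 bases before the start, and the match of NFKBIA began 81 bases before it. In NFKB1 and REL the forms began at -49 and -46, close to the start. A broader form, which has 3 G, any 5 bases and CC and so includes every strict match, stood in all 13 windows of the members but also in 58.7% of all windows. The starts of RELA, TNFAIP2 and ICAM1 had matches of the broader form alone. The AP-1 form TGANTCA was in none of the 13 windows (7.71% of all windows). An interferon-type repeat, GAAA and GAAA with any 2 bases between them, was in 1, at a RELA start (3.57% of all). A TATA box, TATAAA, lay 33 bases before the NFKBIA start on the opposite strand and 30 bases before the ICAM1 start on the gene's own strand, against 11.5% of all windows on either strand.

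**Figure D1:**
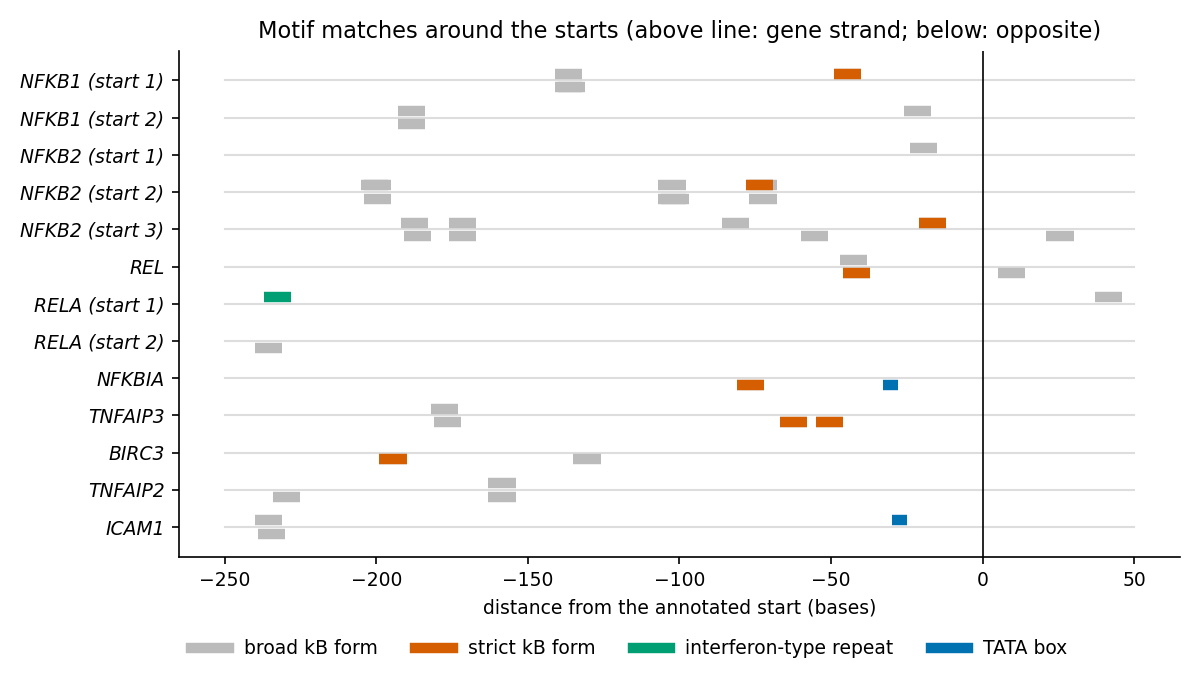
Positions of motif matches in the 13 promoter windows of 9 members, by distance in bases from the annotated start; bars above a line lie on the gene's strand and bars below it on the opposite strand. Strict kB forms (orange) stand in 7 of the 13 windows, between 250 bases before the start and the start itself, and TNFAIP3 holds a pair.

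HHLA3 itself, the targeted gene, was at 5.99 CPM in the control library, 1.55 under siHHLA3-1 and 0.735 under siHHLA3-3. Library totals ran from 26950852 to 35069930 reads, and mitochondrial genes took 5.93% to 6.24% of them. All 10 epithelial markers had rows, with summed levels of 6199, 6025 and 5039 CPM, in the order siNC, siHHLA3-1, siHHLA3-3 used for every set of 3 values below, and median log2 ratios to siNC of 0.09 and -0.21. Of the leukocyte markers, CD14 was at 9.76, 9.83 and 6.50 CPM and CSF1R at 32.95, 39.4 and 30.3 CPM, and the pan-leukocyte marker PTPRC had no row. For 3 of 11 fibroblast and endothelial markers (COL1A1, CDH5 and KDR) the sums were 20.9, 46.5 and 15.9 CPM, highest with siHHLA3-1, where COL1A1 (11.3, 24.5 and 10.9 CPM) and CDH5 (7.95, 19.2 and 3.01 CPM) were also highest. Their part in the results below was not tested.

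All 10 members were above the control with siHHLA3-1, while with siHHLA3-3 7 were above it and 3 below. Of all 13879 genes, 48.2% were above siNC with siHHLA3-1 and 48.55% with siHHLA3-3, the shares against which such counts are read here and in the lists below. ICAM1, TNFAIP3 and RELB were higher with both siRNAs. NFKB2 and BIRC3 were higher mainly with siHHLA3-3. NFKBIA, RELA and TNFAIP2 lay above siNC with siHHLA3-1 and below it with siHHLA3-3. On the log2 scale of (CPM + 1), used below wherever a log2 ratio is given, the members' median ratio to siNC was 0.33 with siHHLA3-1 and 0.44 with siHHLA3-3. The median over all 13879 genes was -0.01 in both comparisons. Both comparisons share the siNC library, so their likeness is not taken as a result.

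No member reached 2-fold on that scale in any comparison. With siHHLA3-1 the 2-fold line was passed upward by 0.973% of all genes and downward by 0.382%. With siHHLA3-3 the shares were 0.807% and 1.48%. At 1.5-fold, 2 of 10 members were higher with siHHLA3-1 (ICAM1 and TNFAIP3), where 5.03% of all genes were. With siHHLA3-3, 5 of 10 were higher (NFKB2, RELB, TNFAIP3, BIRC3 and ICAM1), where 3.65% of all genes were. The counting interval of the ratio lay above 1 for 9 members with siHHLA3-1, as for 28.7% of all genes. With siHHLA3-3 it lay above 1 for 6 members, as for 27.6% of all genes, and below 1 for 3 members, as for 30.6%. At this depth such intervals are narrow, and they do not contain the spread between cultures, which these libraries cannot give.

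**Figure D2:**
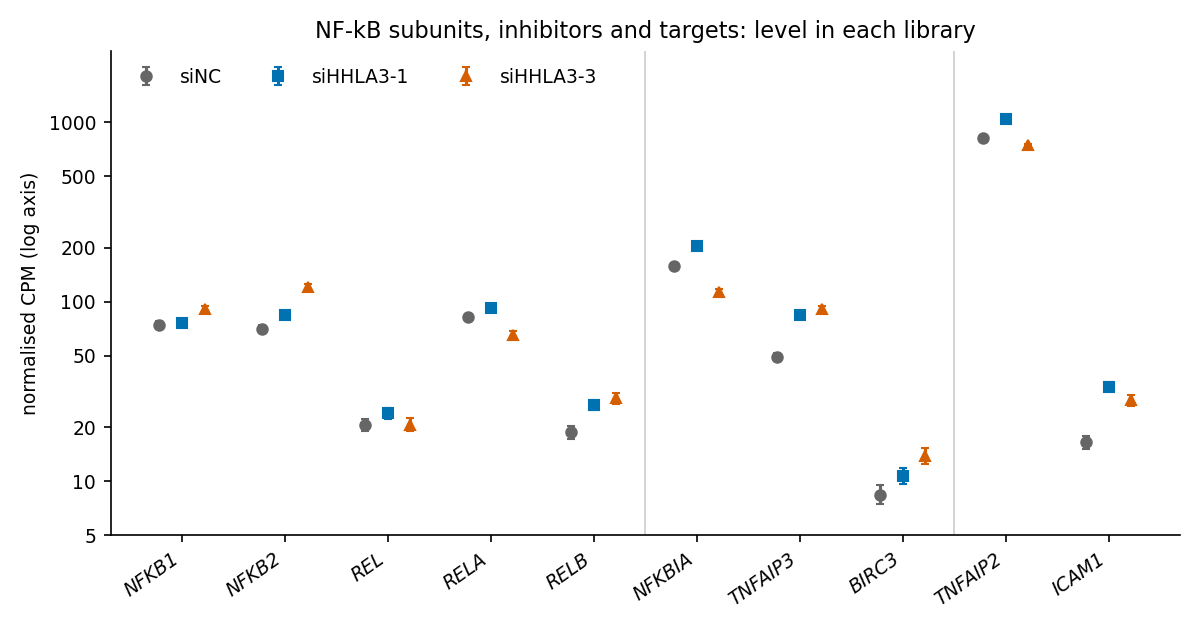
Normalised CPM of each member in each library on a log axis, with exact 95% Poisson intervals of the count; vertical lines part subunits, inhibitors and feedback regulators, and targets. TNFAIP2 is the highest and BIRC3 the lowest in all 3 libraries, and TNFAIP3, RELB and ICAM1 have both siHHLA3 libraries above siNC.

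RELA encodes p65, the main transactivating subunit of the canonical arm, and lies at chr11:65653596-65663094 on the minus strand in GENCODE release 29 (GRCh38). All gene positions below come from the same release, whose build differs from the hg19 named in the submitters' processing notes. RELA stood at 82.5 CPM with siNC (2646 counts), 92.3 with siHHLA3-1 (3277 counts) and 65.3 with siHHLA3-3 (1778 counts). The siHHLA3-3 library was the lowest of the libraries and siHHLA3-1 the highest. The gene AP001362.2 overlaps RELA on the opposite strand and had 42, 46 and 32 counts. RELA thus lay above siNC by 1.12-fold under siHHLA3-1 (95% counting interval 1.06 to 1.18). Under siHHLA3-3 it was 1.26-fold lower than siNC (1.19 to 1.34).

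NFKB1 (chr4:102501329-102617302, plus strand), the source of p50, was at 74.5, 75.8 and 91.2 CPM. The first pair of values did not differ beyond counting error (1.02-fold, 0.963 to 1.08). Its siHHLA3-3 value was 1.22-fold above siNC (1.16 to 1.30), so NFKB1 and RELA, the partners of the classical dimer, lay on opposite sides of siNC in that library.

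NFKB2 (chr10:102394110-102402529, plus strand) encodes p100, which is both an inhibitor and the precursor of p52. Its levels were 70.7 CPM with siNC (2267 counts), 84.0 with siHHLA3-1 (2983 counts) and 121 with siHHLA3-3 (3305 counts). All 3 values were separated by more than counting error, in that order. The excess over siNC was 1.19-fold (1.13 to 1.26) with siHHLA3-1 and 1.72-fold (1.63 to 1.81) with siHHLA3-3. The latter log2 ratio, 0.77, was the 223rd highest of 13879.

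RELB (chr19:45001430-45038198, plus strand) is the usual partner of p52 in the non-canonical arm. It stood at 18.7 CPM with siNC (600 counts), 26.6 with siHHLA3-1 (944 counts) and 28.9 with siHHLA3-3 (786 counts). Both siHHLA3 libraries were above siNC, by 1.42-fold (1.28 to 1.58) and 1.54-fold (1.39 to 1.72). Between them RELB did not differ beyond counting error (1.09-fold, 0.987 to 1.20).

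REL (chr2:60881521-60931610, plus strand), the c-Rel subunit best known from lymphocytes, was low in every library. Its levels were 20.5, 23.9 and 20.6 CPM, with siNC and siHHLA3-3 alike to within counting error. It was 1.17-fold above siNC with siHHLA3-1 (1.05 to 1.29). With siHHLA3-3 the ratio of 1.01 had an interval of 0.899 to 1.13.

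The makeup of the subunit pool was compared per length, on the deposited TPM (a transcript level that divides each gene's reads by its length). In normalised CPM, which leaves length aside, the 5 subunits summed to 267 with siNC, 303 with siHHLA3-1 and 327 with siHHLA3-3. The deposited TPM does not carry the scaling between libraries used for that CPM. Summed in TPM the level of the 5 subunits was 170 TPM with siNC, 204 with siHHLA3-1 and 226 with siHHLA3-3. RELA made up 30.5% of that sum with siNC, 29.5% with siHHLA3-1 and 18.9% with siHHLA3-3. NFKB2 made up 30.2%, 31.1% and 40.8%, and RELB 12.5%, 15.4% and 15.1%. NFKB1 took 23.6%, 20.8% and 22.7%, and REL 2.48% to 3.17%. RELA and NFKB2 were thus at nearly equal TPM with siNC (51.7 and 51.3), and with siHHLA3-3 NFKB2 was at 92.1 TPM and RELA at 42.8. The ratio of RELB to RELA, both in TPM, went from 0.410 with siNC to 0.521 with siHHLA3-1 and 0.800 with siHHLA3-3. These shares are of RNA and say nothing of the processing of p100 or p105, which takes place on the proteins. The length that links the deposited CPM and FPKM was 13.2 kb for REL and 3.02 to 6.36 kb for the other subunits, so the TPM of REL depends on how much of that long model is transcribed here.

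**Figure D3:**
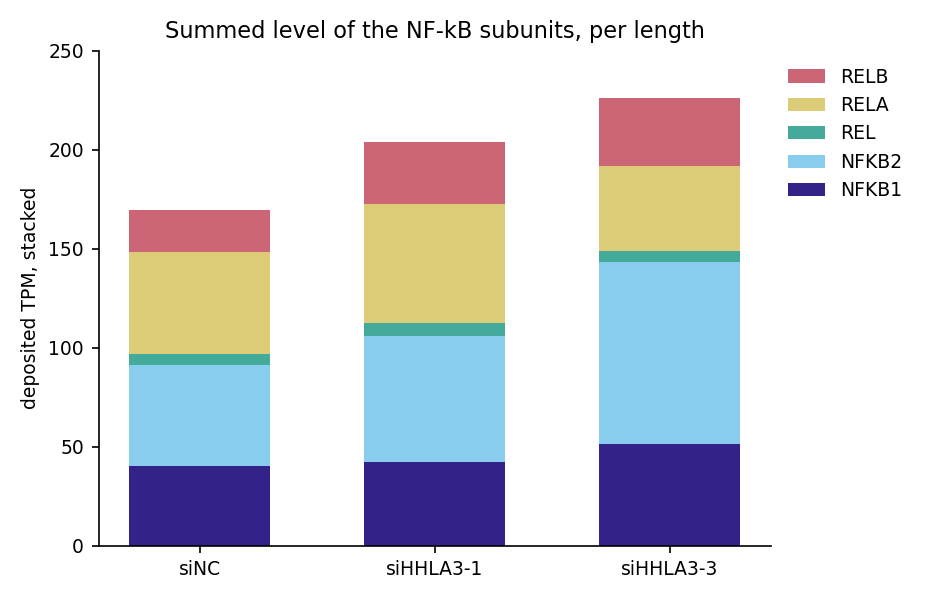
Deposited TPM of the 5 subunits stacked for each library (linear axis from 0). The summed level is 170 TPM with siNC, 204 with siHHLA3-1 and 226 with siHHLA3-3, where the NFKB2 segment is taller and the RELA segment shorter than in the other libraries.

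NFKBIA (chr14:35401511-35404749, minus strand) encodes IkB-alpha, which NF-kB induces and which then returns the dimers to the cytoplasm. It stood at 157 CPM with siNC (5044 counts), 204 with siHHLA3-1 (7255 counts) and 113 with siHHLA3-3 (3080 counts). The siHHLA3 libraries thus lay on opposite sides of siNC, 1.30-fold above it (1.25 to 1.347) and 1.39-fold below it (1.33 to 1.45). Between siHHLA3-3 and siHHLA3-1 the difference was 1.81-fold (1.73 to 1.88), the widest among the members for that pair. On the log2 scale it was -0.85, and 3.37% of genes were lower.

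TNFAIP3 (chr6:137867188-137883312, plus strand) encodes A20, which edits ubiquitin chains on signalling proteins upstream of IKK. Its levels were 49.3 CPM with siNC (1582 counts), 84.7 with siHHLA3-1 (3006 counts) and 90.5 with siHHLA3-3 (2463 counts). Both siHHLA3 libraries were well above siNC and close to each other, 1.72-fold (1.61 to 1.83) and 1.83-fold (1.72 to 1.96) above it. These log2 ratios, 0.77 and 0.86, ranked 332nd and 167th from the highest of 13879. An antisense gene, AL357060.1, overlaps TNFAIP3 and stood at 3.43, 5.32 and 7.27 CPM (110, 189 and 198 counts), in the same order as TNFAIP3. The sources used here do not say whether reads were counted by strand, so reads of this pair cannot be told apart, although the antisense counts were few beside those of TNFAIP3.

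TNFAIP3 and NFKBIA, both induced by NF-kB and both with strict kB forms near the start as printed above, did not differ from siNC alike. With siHHLA3-1 both were above siNC, but with siHHLA3-3 TNFAIP3 was above it and NFKBIA below. The ratio of TNFAIP3 to NFKBIA, both in TPM, was 0.148 with siNC, 0.196 with siHHLA3-1 and 0.377 with siHHLA3-3. The ratio of NFKBIA to RELA was 4.39, 5.10 and 3.99, and that of NFKBIA to NFKB1 was 5.66, 7.23 and 3.33.

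BIRC3 (chr11:102317450-102339403, plus strand) encodes cIAP2, a ubiquitin ligase at the TNF receptor that also helps degrade the kinase NIK. BIRC3 had the lowest CPM of the members, a scale that leaves gene length aside. It was at 8.42 CPM with siNC (270 counts), 10.7 with siHHLA3-1 (380 counts) and 13.8 with siHHLA3-3 (377 counts). The values stood 1.27-fold (1.08 to 1.49) and 1.65-fold (1.40 to 1.93) above siNC. Its paralog BIRC2 (cIAP1), no member and named here after its values were seen, stood at 54.0, 70.0 and 33.8 CPM and was 1.60-fold below siNC with siHHLA3-3. The ratio of BIRC3 to BIRC2 in TPM was 0.0940 with siNC, 0.0921 with siHHLA3-1 and 0.247 with siHHLA3-3.

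ICAM1 (chr19:10270835-10286615, plus strand) is the endothelial and epithelial ligand of leukocyte integrins. Its start is shown with the TATA box in capitals, since no strict kB form lies in its window. Any kB site that fits neither the strict nor the broader form was outside the search.
ICAM1 (chr19:10271078-10271107, plus strand): ggtggctagcgcTATAAAggatcacgcgcc
ICAM1 stood at 16.5 CPM with siNC (528 counts), 33.6 with siHHLA3-1 (1193 counts) and 28.2 with siHHLA3-3 (769 counts). The control was the lowest and the siHHLA3 libraries were apart by more than counting error. The ratio of CPM to siNC was 2.04-fold with siHHLA3-1 (1.84 to 2.27) and 1.72-fold with siHHLA3-3 (1.53 to 1.92). On the (CPM + 1) scale the siHHLA3-1 log2 ratio was 0.99, just under the 2-fold line, and it was the 140th highest of 13879. That call depends on scaling: with library totals alone, with a pseudocount of 0.1 or with the deposited TPM, ICAM1 was past 2-fold with siHHLA3-1.

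TNFAIP2 (chr14:103123442-103137439, plus strand), a TNF-inducible gene, was by far the most abundant member. It stood at 812 CPM with siNC (26044 counts), 1035 with siHHLA3-1 (36770 counts) and 745 with siHHLA3-3 (20288 counts). It was 1.28-fold above siNC with siHHLA3-1 (1.26 to 1.30) and 1.09-fold below it with siHHLA3-3 (1.07 to 1.11). The latter is a small difference whose interval is narrow because the gene was deeply counted, and its log2 ratio of -0.12 became -0.06 with the deposited TPM.

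**Figure D4:**
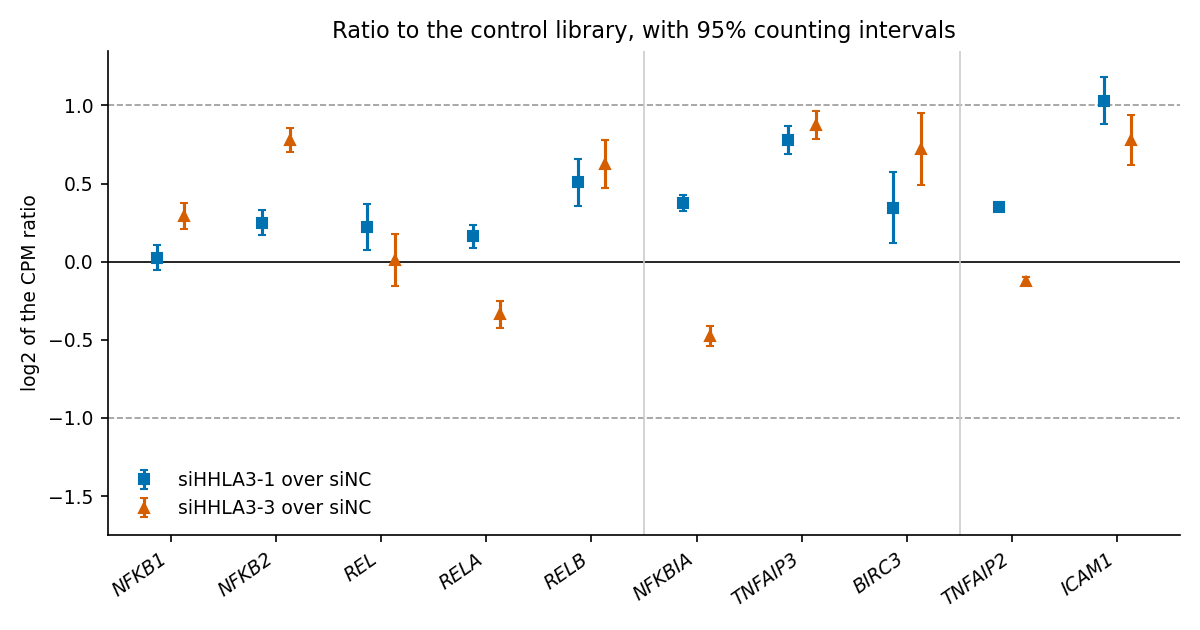
Log2 of the CPM ratio of each siHHLA3 library to siNC for each member, with exact 95% counting intervals; dashed lines mark 2-fold. All siHHLA3-1 values (squares) are above 0, and the siHHLA3-3 values (triangles) of RELA, NFKBIA and TNFAIP2 are below 0.

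By TPM the members kept a common order at the top. TNFAIP2 (549, 729 and 527 TPM) and then NFKBIA (227, 307 and 171 TPM) led in all 3 libraries. BIRC3 (3.83, 5.07 and 6.59 TPM) and REL (5.32, 6.46 and 5.60 TPM) were the lowest in each. With siNC the next places were RELA and NFKB2, whose intervals overlapped, then NFKB1 (40.1), TNFAIP3 (33.6), RELB (21.2) and ICAM1 (16.3 TPM). With siHHLA3-1, NFKB2 (63.5), RELA (60.2) and TNFAIP3 (60.0 TPM) had intervals that overlapped from each to the next, as had ICAM1 (34.7) and RELB (31.4). In the siHHLA3-3 library TNFAIP3 (64.4 TPM) stood above NFKB1 (51.3) and RELA (42.8), the reverse of their places with siNC. RELB (34.2) and ICAM1 (29.3 TPM) followed, and the intervals of BIRC3 and REL overlapped.

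Compared directly, the siHHLA3-3 library had 5 members above siHHLA3-1 and 5 below. The median log2 ratio of the members was -0.05, against 0.00 for all genes. None reached 2-fold, where 0.757% of all genes were higher and 2.12% lower. NFKBIA alone passed 1.5-fold, as a lower gene, like 7.82% of all genes. Counting intervals lay above 1 for 4 members (NFKB1, NFKB2, TNFAIP3 and BIRC3; 31.6% of all genes) and below 1 for 5 (REL, RELA, NFKBIA, TNFAIP2 and ICAM1; 31.1% of all genes). NFKB2 was 1.45-fold higher (1.37 to 1.52), and RELA 1.41-fold (1.33 to 1.498) and TNFAIP2 1.39-fold (1.37 to 1.41) lower. The 3 members on opposite sides of siNC, RELA, NFKBIA and TNFAIP2, had a siHHLA3-1 interval above 1 and a siHHLA3-3 interval below 1, as had 5.61% of all genes.

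When the siHHLA3 libraries were taken as 2 samples against siNC in edgeR's quasi-likelihood test, 0 members passed a Benjamini-Hochberg adjusted p of 0.05. The residual spread of that fit came from the difference between the 2 siHHLA3 libraries, which had different siRNAs and batch labels. Such spread is not that between replicate cultures, so a gene that did not pass cannot be called unchanged. The fit had 1 residual degree of freedom and assumed that the lone siNC library varies like the others. It called 1 gene of 13879 (0.00721%), and 349 genes at an unadjusted p under 0.05. DESeq2 called 5 genes, 0 of them members. In the edgeR fit the largest log2 fold changes among the members were 0.91 for ICAM1 and 0.83 for TNFAIP3. HHLA3 itself, lower in both libraries than in siNC, did not pass edgeR's test either (adjusted p = 1.00).

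The 7-base sequences CAGAATG and GTGAACT had marked genes lower with siHHLA3-1 and siHHLA3-3 in an earlier account of these same ratios. They were looked up in the annotated sequence after the stop codon of each member, the 3′ untranslated region (UTR), in GENCODE release 29. GTGAACT was found in 1 member, NFKBIA, in all 4 of its transcripts with such a region. CAGAATG was found in 1 member, REL, in 1 of 3 transcripts. Among all 11973 genes searched, 15.1% held GTGAACT and 22.1% held CAGAATG. The sites are shown with the 7 bases in capitals, since the NFKBIA site is in the member that differed most between the siRNAs.
NFKBIA, from 772 bases after the stop codon: ttgttgcttttGTGAACTttttgtagggg
REL, from 1305 bases after the stop codon: cataaagtagcCAGAATGattatttttaa

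NFKBIA was below siNC with siHHLA3-3, and RELA and TNFAIP2, which lack GTGAACT, were below it too. REL, with CAGAATG, was above siNC with siHHLA3-1. Over the members and the pathway genes described next, 16 held GTGAACT, of which 11 were below siNC with siHHLA3-3, with a median log2 ratio of -0.33. Of the 95 without it 27 were below, with a median of 0.20. The carriers lay on both sides of siNC: the kinases MAP3K7 and MAP3K3 both hold GTGAACT, with log2 ratios of -0.86 and 0.50. Over all searched genes above the filter 1239 of 1801 carriers were below siNC with siHHLA3-3 (median -0.17), a share close to that of the 16, and 4977 of 10002 genes without GTGAACT were (median 0.00). With siHHLA3-1, the medians of the same 16 and 95 pathway genes were 0.22 and 0.25. For CAGAATG with siHHLA3-1, 5 of 16 pathway carriers and 23 of 95 other pathway genes were below siNC, with medians of 0.14 and 0.28. Over all searched genes those medians were -0.08 and -0.01. Since both 7-base sequences were picked from these ratios, the values are a description. The siRNA sequences are not given in the sources used here, and whether such sites had a part in the values was not tested.

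The rest of the pathway was read from lists, beginning at the receptors. The lists, like the members, were chosen with earlier results of these data known, so their counts above siNC are a description. Of 11 receptors above the filter, 8 were above siNC with siHHLA3-1 and 5 with siHHLA3-3, with median log2 ratios of 0.08 and -0.01, the latter count being near the share of all genes. TNFRSF12A, the receptor of TWEAK and an inducer of the non-canonical arm, stood at 256, 350 and 360 CPM. CD40, another receptor of that arm, stood at 11.2, 17.0 and 14.7 CPM. IL1R1, the interleukin-1 receptor, stood at 36.2, 35.5 and 19.5 CPM, and TNFRSF11A (RANK) at 13.5, 11.3 and 8.26 CPM. TLR3, a sensor of double-stranded RNA, was the receptor past 2-fold, with siHHLA3-1 alone (1.68, 4.48 and 2.42 CPM), and was named after its values were seen. Of the 4 ligands above the filter, interleukin-18 (IL18) was at 27.8, 24.2 and 24.0 CPM. Their medians were 0.10 and -0.24, with 2 and 1 above siNC. TNFSF13B (BAFF), named after its values were seen, was past 2-fold on the (CPM + 1) scale with siHHLA3-1 (0.468, 2.45 and 0.220 CPM, from 15, 87 and 6 counts).

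Adaptors and ubiquitin ligases numbered 19, of which 13 and 14 were above siNC with siHHLA3-1 and siHHLA3-3, with medians of 0.09 and 0.12 and none past 2-fold. IRAK2, a kinase-like adaptor of the interleukin-1 receptor, was at 21.9, 37.0 and 39.3 CPM, and RBCK1 (HOIL-1), a subunit of the linear ubiquitin ligase, at 171, 249 and 289 CPM. TRAF6, a ligase of the interleukin-1 and Toll-like receptor route, stood at 12.1, 18.5 and 16.3 CPM. MYD88, the adaptor upstream of it, was at 109, 185 and 113 CPM, high with siHHLA3-1 alone.

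Among 12 IKK and upstream kinases, 5 were above siNC with siHHLA3-1 and 7 with siHHLA3-3, with medians of -0.04 and 0.04 and none past 2-fold in either direction. MAP3K7 (TAK1), which activates IKK, stood at 57.3, 47.8 and 31.1 CPM. MAP3K3 (MEKK3) was at 31.7, 44.5 and 45.3 CPM and IKBKE at 23.6, 34.1 and 32.8 CPM. MAP3K8, a kinase that p105 holds inactive, was at 16.6, 30.05 and 18.5 CPM. MAP3K14 (NIK), the kinase of the non-canonical arm, was at 12.6, 11.8 and 9.66 CPM and was named after its values were seen. Its ratio to siNC with siHHLA3-3 was 0.767 (0.654 to 0.898).

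The other 6 IkB proteins had medians of 0.23 and 0.22, with 5 and 4 above siNC. NFKBIB (IkB-beta), a cytoplasmic inhibitor like NFKBIA, stood at 21.5, 24.0 and 31.3 CPM. Its siHHLA3-3 value was above siNC where that of NFKBIA was below. BCL3, a nuclear member of the list named after its values were seen, was like NFKBIA above siNC with siHHLA3-1 and below it with siHHLA3-3 (111, 134 and 90.4 CPM). NFKBIZ, a nuclear IkB protein, was at 65.4, 85.7 and 63.0 CPM. NFKBID, also nuclear, was at 4.49, 5.49 and 6.91 CPM, and NFKBIL1 at 7.08, 8.45 and 9.62 CPM.

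Of 15 other negative regulators, 10 and 7 were above siNC, with medians of 0.17 and -0.01. ZC3H12A (Regnase-1), a ribonuclease that degrades inflammatory mRNAs, stood at 34.0, 79.9 and 40.8 CPM and was past 2-fold with siHHLA3-1 alone. CYLD, a deubiquitinase, was at 25.2, 37.5 and 30.7 CPM. TNIP1, a partner of A20, was at 203, 229 and 307 CPM, and USP18, a protease better known from the interferon response, at 158, 200 and 208 CPM.

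The target lists had higher medians with siHHLA3-1 than the lists of signalling genes. Of 11 cytokine and chemokine targets above the filter, 11 and 9 were above siNC, with medians of 0.60 and 0.45. The 2 below siNC with siHHLA3-3, named after their values were seen, were the chemokine CCL5 (16.8, 33.7 and 8.93 CPM) and the macrophage growth factor CSF1 (71.4, 109 and 40.4 CPM), both above siNC with siHHLA3-1. On the (CPM + 1) scale none of the 11 was past 2-fold with siHHLA3-1, and 4 were with siHHLA3-3. The highest log2 ratio of the list with siHHLA3-1 was 0.96, just under the 2-fold line. The cytokines IL6 and IL11 were at 7.86, 12.5 and 26.4 CPM and at 23.4, 42.4 and 70.0 CPM, and the chemokine CXCL2 was at 5.08 CPM with siNC and 6.70 with siHHLA3-1, and its log2 ratio with siHHLA3-3 was 1.64. The fourth gene past 2-fold, CSF2 (GM-CSF), was at 1.28, 1.72 and 3.93 CPM and was named after its values were seen. CXCL8, a neutrophil chemokine, stood at 15.0, 23.3 and 20.9 CPM. Of 23 other targets, 19 and 19 were above siNC, with medians of 0.48 and 0.23. Complement C3 was at 11.2, 22.2 and 22.7 CPM, and the syndecan SDC4 at 535, 1015 and 936 CPM. RIPK2, the kinase of the NOD receptors, stood at 124, 212 and 182 CPM, and the costimulatory receptor TNFRSF9 at 16.1, 43.9 and 16.6 CPM. SOD2, the mitochondrial superoxide dismutase, was at 148, 322 and 155 CPM and was named after its values were seen. Beside the ICAM1 and TNFAIP3 of the members, C3 and SDC4 were thus high with both siRNAs, while TNFRSF9 and SOD2 were near siNC with siHHLA3-3. Of the 23, 4 were below siNC with each siRNA. CCND1, named after its values were seen, was at 328, 177 and 516 CPM. Its log2 ratio was -0.88 with siHHLA3-1, the lowest of that list, and 0.65 with siHHLA3-3.

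**Figure D5:**
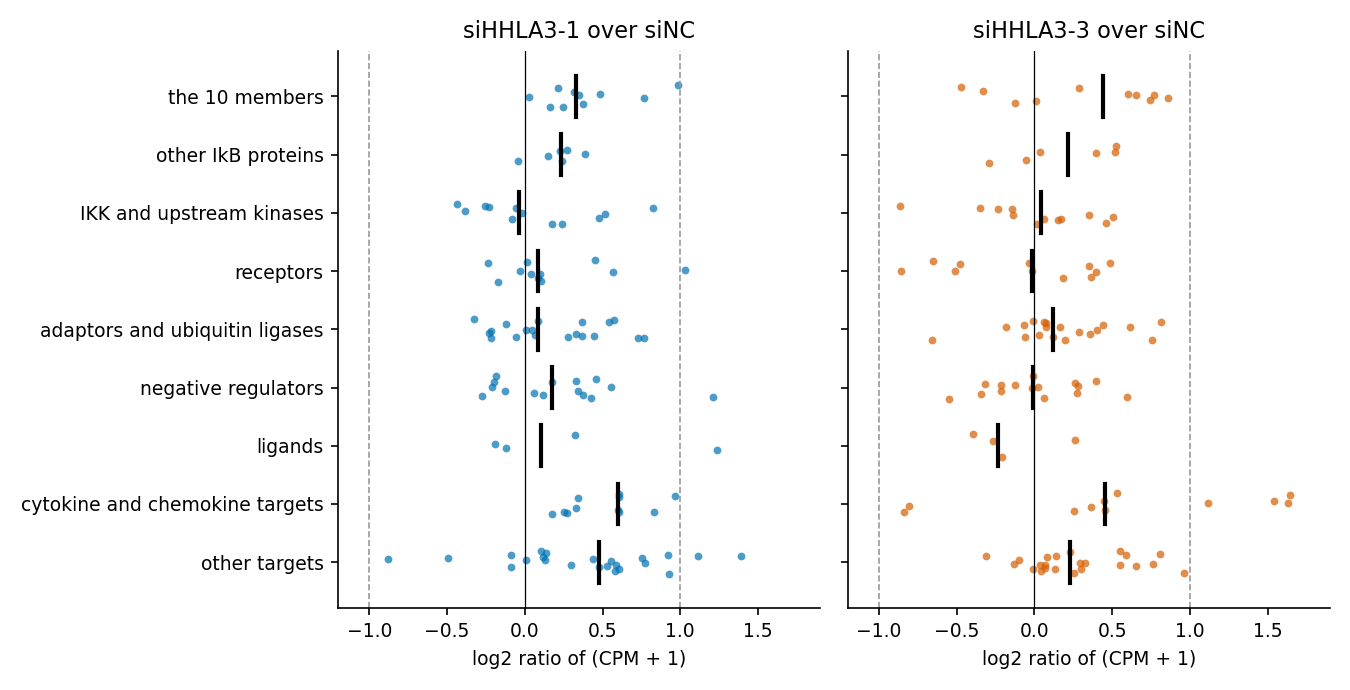
Log2 ratio of (CPM + 1) to siNC for every gene above the filter in each list, with siHHLA3-1 on the left and siHHLA3-3 on the right; black bars are list medians and dashed lines mark 2-fold. The medians of the 10 members are 0.33 and 0.44, and those of the IKK and upstream kinases are near 0.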

How the data were processed

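RNA sequencing of 3 H1975 libraries, 1 per group, was deposited as 1 table. The deposited counts are whole reads per gene. The authors also deposited CPM (counts scaled to the library total), FPKM and TPM (scaled by gene length), per the file headers; genes with a summed FPKM under 1.00 have no row. HISAT2, HISAT, TopHat2, Bowtie2 and hg19 are named in the submitters' processing notes; the counter, annotation and strand setting are not given in the sources used here. Counts were scaled with TMM factors (0.978, 1.01 and 1.01 for siNC, siHHLA3-1 and siHHLA3-3; edgeR 4.0.16, R 4.3.3) over library totals recovered from counts and CPM. Log2 ratios used a pseudocount of 1 CPM and were given for genes whose mean over libraries reached 1 CPM. Levels have exact 95% Poisson intervals and ratios exact 95% binomial ones. A gene counted as called at 2-fold. DESeq2 1.42.0, pandas 2.3.3, numpy 2.4.6 and scipy 1.17.1 were also used, and the methods were tested on simulated data.

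The members and lists were chosen with earlier results of these data known. From each list, up to 4 genes were named, those of largest mean log2 ratio in size over both siRNAs and a mean level of 5 CPM or more; so was any gene 2-fold off with both; other names are marked in the text. TPM and FPKM, other scaling, pseudocounts, filters and thresholds were the alternatives.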

Additional observations from a re-analysis of the deposited data

Results flagged for a closer look

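For 3 members the siHHLA3 libraries lay on opposite sides of siNC, each with a counting interval that left out 1. The log2 ratio of siHHLA3-3 over siHHLA3-1 was -0.85 for NFKBIA, -0.49 for RELA and -0.47 for TNFAIP2. With 1 library per siRNA, the difference was not tested against replicate spread.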

How the results depend on the processing

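No sign of the 30 member ratios (10 members, 3 comparisons) changed with other scaling, a pseudocount of 0.1, or the deposited TPM or FPKM, and 7 values moved beyond the counting interval, all for NFKBIA or TNFAIP2. The 2 other filters cannot move a member's ratio. The count of members at 2-fold with siHHLA3-1 went from 0 to 1 (ICAM1) with library totals alone, a pseudocount of 0.1 or the deposited TPM. At 1.5-fold the counts were 2 with siHHLA3-1, 5 with siHHLA3-3 and 1 between the siRNAs. Over all genes, 188, 317 and 399 genes were past 2-fold with siHHLA3-1, with siHHLA3-3 and between the siRNAs. The deposited FPKM gave 112, 175 and 208, and 1.5-fold gave 1161, 1279 and 1695. A pseudocount of 0.1 gave 313 with siHHLA3-1. The members' median log2 ratio ranged from 0.33 to 0.38, from 0.38 to 0.50 and from -0.06 to -0.02. Without replicates, depth sets only the counting error. No paired analysis was possible because each group held 1 library.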
